A study of Mus musculus with 16 samples.

Results

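The genes described are the heat shock proteins of mouse heart with their partners: 82 of the 56953 genes in the count table. They were chosen by symbol alone, as genes of the Hspa, Hspb, Hspd, Hspe, Hsph and Hsp90 series, the Dnaja, Dnajb and Dnajc series, Bag1 to Bag6, and Hsf1, Hsf2, Hsf4 and Hsf5, without pseudogenes. They comprised 14 genes of the Hsp70 and Hsp110 families, 3 Hsp90 genes, the 2 genes of the mitochondrial chaperonin and 4 heat shock factors. A further 8 were counted as small heat shock proteins by their Hspb symbol alone. The rest were 4 Dnaja, 13 Dnajb and 26 Dnajc genes, and 8 Bag proteins and other nucleotide exchange or binding partners. Of the 82 genes, 77 passed the filter on low counts and were tested. Dnajb8, Dnajc6, Dnajc22, Hsf5 and Hspb9 did not, with between 0 and 14 counts in every library.

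RNA of left ventricles was sequenced from 16 Bl6J mice in 4 groups of 4. RBM20 is a splicing factor of heart muscle whose mutation causes cardiomyopathy, and the animals carried either its normal form (WT) or, on both alleles, the amino acid change P635L. Each was given 1e12 genomes of an AAV9 vector by tail vein at 4 weeks of age, and hearts were taken 12 weeks later, at 16 weeks. Its cargo was the cDNA of Tnpo3, which encodes an import receptor of the nucleus, or, in controls, a construct of the pCAG promoter with iCre and eGFP. All 4 groups had therefore received virus, and the control groups a Cre recombinase. WT mice are called WT Ctr or WT Tnpo3 by their virus, and mutant mice P635L Ctr or P635L Tnpo3. Both sexes were used, the sex of single mice is not given by the labels, and the promoter of the Tnpo3 vector is not given in the sources used here.

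Heat shock proteins bind unfolded or misfolded proteins and keep them from aggregating or help them to fold. Hsp70 proteins bind and release their clients in a cycle of ATP hydrolysis, which J-domain proteins of the DnaJ families start and nucleotide exchange factors such as the Bag proteins and Hsp110 end, while Hsp90 acts later on signalling proteins and, in muscle, on myosin. Small heat shock proteins hold clients without ATP and are abundant in heart muscle, where they protect the sarcomere. Heat shock factors are the transcription factors that raise many of these genes under stress, while the chaperones of the endoplasmic reticulum, Hspa5 (BiP) and Hsp90b1 (GRP94), are raised by the unfolded protein response.

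Library totals ran from 28493249 to 85922669 counts, and the 82 genes together held between 0.983 and 1.35% of the counts of a library. Tnpo3 stood at 44.8 ± 3.29 CPM (counts scaled to library size by the TMM method) in WT Ctr and 44.5 ± 2.72 in P635L Ctr, against 320.5 ± 126 in WT Tnpo3 and 464 ± 214 in P635L Tnpo3 (mean ± SD, n = 4 each), so the virus labels held in every group. In 3 libraries (WT Ctr 2, WT Ctr 4 and WT Tnpo3 4) a single gene, ENSMUSG00000119584, took between 19.96 and 22.65% of the counts, and 3 libraries (WT Ctr 4, WT Tnpo3 2 and WT Tnpo3 4) held high Xist counts, the RNA of the inactive X chromosome of females. Both features fell on WT groups only. The libraries with high Xist had 0 counts of the Y-linked genes Ddx3y, Uty, Kdm5d and Eif2s3y, and every other library had 3355 to 15105. All P635L libraries thus read as male. Genotype is therefore partly confounded with sex in the comparisons of P635L with WT. In WT Ctr, replicate 2 was the highest library for 50 of the 77 tested members (64.9%), against 25.3% of all tested genes.

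The 10 members of highest level per length included 4 of the 8 small heat shock proteins and the constitutive cytosolic Hsp70 and Hsp90. In TPM, the count per length as a share of all such values in a library, Hspb7 led with 2801 ± 566 in WT Ctr, followed by Hsp90ab1, the constitutive cytosolic Hsp90, with 1373 ± 151 (SD, n = 4). Hspa8, the constitutive cytosolic Hsp70, had 843 ± 80.3 TPM, Hspb8 had 819 ± 79.6 TPM and Hspb6 had 746 ± 117 TPM, and these 3 levels did not differ beyond their spread. Then came Bag1, an exchange factor of Hsp70, with 583 ± 43.1 TPM, Hspb1 with 499.6 ± 116 TPM, the mitochondrial Hsp70 gene Hspa9 with 405 ± 9.36 TPM, Hspa5 with 279.7 ± 21.6 TPM and Hspd1 with 263 ± 41.4 TPM. The libraries of Hspa5 and Hspd1 overlapped, those of Bag1 overlapped Hspb6 and Hspb1, and those of Hspb1 also overlapped Hspa9. These 10 genes held on average 77.1% of the summed TPM of the 82 genes in WT Ctr and 77.2% in P635L Ctr. The stress-inducible Hspa1a stood far below, at 0.925 ± 0.334 TPM in WT Ctr.

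**Figure D1:**
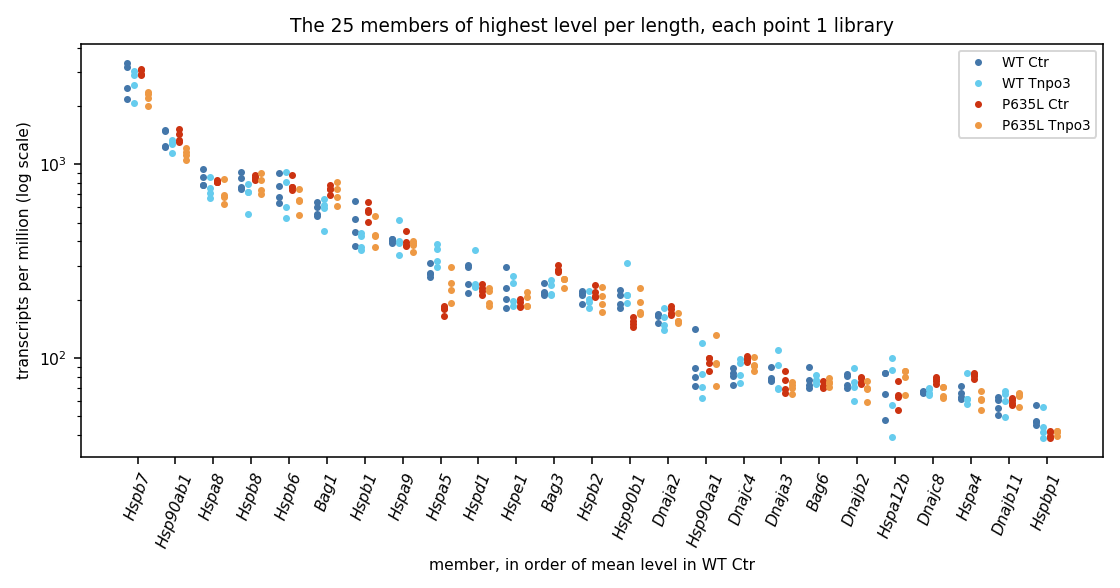
Level per length of the 25 members highest in WT Ctr, in TPM on a log scale, with 1 point per library and 1 colour per group. The order runs from Hspb7 down to Hspbp1. Among the first 10, the P635L Ctr points lie wholly below the WT Ctr points for Hspa5 and wholly above them for Bag1, and overlap them for the other 8. For Bag1 this holds in TPM only. In CPM, the scale of the tests, it had 260.6 to 369 in WT Ctr and 339.6 to 383 in P635L Ctr. Its log2 fold change was 0.17 ± 0.12 (SE), adjusted p = 0.373 with edgeR, and it was not called.

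The first comparison, P635L Ctr against WT Ctr, asks what the RBM20 mutation changes under the control virus. Among the 77 tested members 4 rose and 5 fell at an adjusted p under 0.05 (edgeR's quasi-likelihood test, Benjamini-Hochberg over all 18662 genes tested). That is 9 of 77, or 11.7%, against 14.2% of all tested genes (7.07% called higher and 7.14% called lower), so the share of members that changed was near the background. Their median log2 fold change was -0.08, against -0.05 over all genes. Those that fell included the 2 major chaperones of the endoplasmic reticulum, and those that rose were a neighbouring pair of cytosolic Hsp70 genes and 2 heat shock factors.

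Hspa5 (BiP, chr2:34661982-34667559, GRCm39) is the Hsp70 of the endoplasmic reticulum and, among the members called, the one that fell furthest. Its CPM was 476, 529.8, 509 and 403 in the WT Ctr libraries, 599.7, 618, 479.6 and 562 in WT Tnpo3, 235, 278, 274 and 300.0 in P635L Ctr and 455, 365, 352 and 306 in P635L Tnpo3. All 4 P635L Ctr libraries lay below every WT library of either virus, and the P635L Tnpo3 libraries lay above all of P635L Ctr. The log2 fold change in P635L Ctr over WT Ctr was -0.82 ± 0.13 (SE), adjusted p = 0.000389, a level 0.57 times that of WT Ctr. Hsp90b1 (GRP94, chr10:86526073-86541373), the Hsp90 of the same compartment, had 313, 354, 331 and 314 CPM in WT Ctr and 221, 226, 219 and 223 CPM in P635L Ctr. These groups did not overlap either, and the log2 fold change was -0.56 ± 0.11 (SE), adjusted p = 0.0023. Hsp90b1 overlaps 1810014B01Rik on the other strand, which had between 4.14 and 9.29 CPM over all libraries. Both calls held in all 17 alternative fits.

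The promoters of these genes carry the ER stress element, the sequence through which ATF6 and XBP1 act, and the stretches that hold it are shown because Hspa5 and Hsp90b1 both hold it and both fell. The element was searched as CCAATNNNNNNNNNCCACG on both strands in the RefSeq promoter windows of build GRCm38.p6, which run from 250 bases before to 50 after a start site and hold 66 of the 82 members. It was found in 39 of 32851 windows (0.119%), among them those of 3 members, and is printed in capitals in the 130 bases before the start site (230 for Hsp90b1), 5′ to 3′ on the strand of the gene (chr2:34771960-34772089, plus strand; chr10:86705445-86705674, minus strand; chr14:118937802-118937931, plus strand).
Hspa5: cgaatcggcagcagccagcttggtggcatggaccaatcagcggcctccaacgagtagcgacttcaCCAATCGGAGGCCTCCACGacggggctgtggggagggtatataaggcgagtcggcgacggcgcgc
Hsp90b1: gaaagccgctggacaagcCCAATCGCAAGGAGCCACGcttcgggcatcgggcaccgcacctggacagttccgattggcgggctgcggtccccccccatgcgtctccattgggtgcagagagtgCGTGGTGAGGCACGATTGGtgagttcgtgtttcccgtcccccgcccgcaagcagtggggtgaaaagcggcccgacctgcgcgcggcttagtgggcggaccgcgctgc
Dnajc3: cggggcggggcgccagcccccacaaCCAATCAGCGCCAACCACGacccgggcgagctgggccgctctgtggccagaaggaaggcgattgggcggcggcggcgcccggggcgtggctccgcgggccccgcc
Hspa5 holds the element from 65 to 47 bases before its start. Hsp90b1 holds 2 copies, from 212 to 194 bases before its start and, on the other strand, from 107 to 89. Dnajc3, an ER cochaperone that also inhibits the kinase PERK, holds it from 105 to 87 bases before its start, yet its level did not pass the test (log2 fold change -0.08 ± 0.10 (SE), adjusted p = 0.634, with 40.3 to 52.7 CPM in WT Ctr and 40.3 to 45.7 in P635L Ctr). A match is a description of the sequence and says nothing of which factor was bound there.

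The fall was not shared by all members that work in this compartment. Of 8 members placed there by textbook knowledge, a grouping made after the values were seen, 2 fell and 6 did not pass the test, with log2 fold changes from -0.82 to 0.33. The grouping may leave out other members of the compartment, so its counts describe these 8 only. Dnajb11, a soluble J-domain partner of BiP, had 62.5 to 84.5 CPM in WT Ctr and 66.3 to 73.0 in P635L Ctr (-0.11 ± 0.11 (SE), adjusted p = 0.539). Dnajb9, which brings misfolded clients to BiP, had a log2 fold change of 0.00 ± 0.19 (SE), adjusted p = 0.991. The lumenal J-domain reductase Dnajc10 had 33.4 to 39.7 against 36.7 to 46.1 CPM (0.10 ± 0.11 (SE), adjusted p = 0.571), and Hspa13 had 0.33 ± 0.14 (SE), adjusted p = 0.132. In all 4 genes the groups overlapped.

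**Figure D2:**
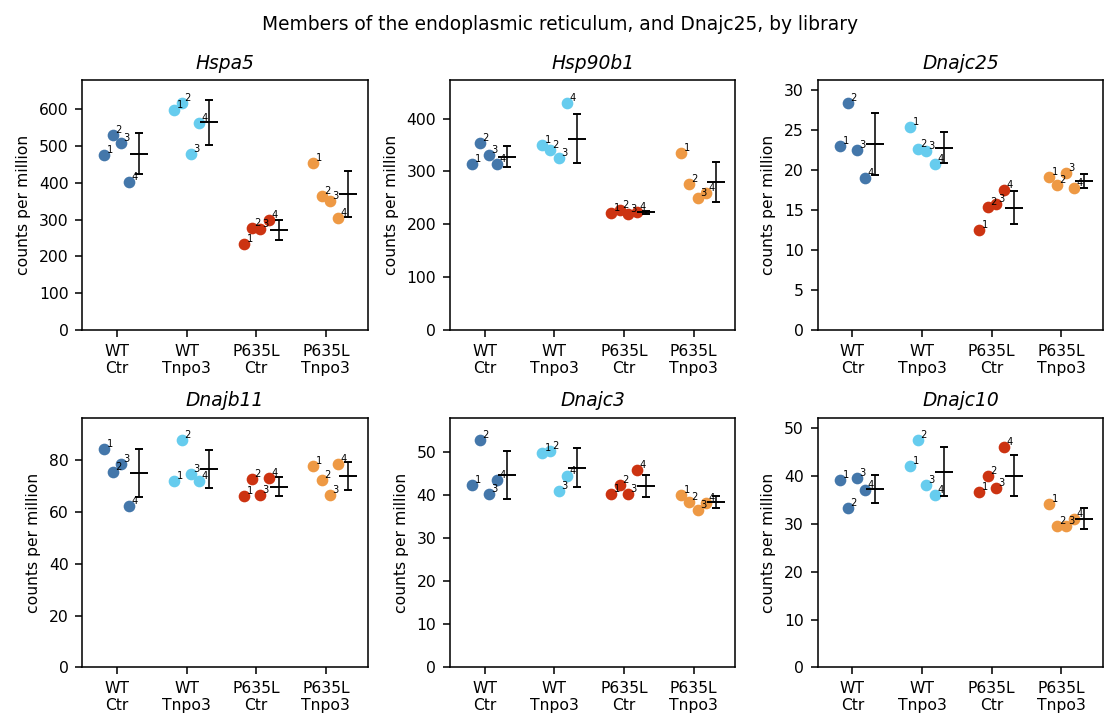
CPM of 5 members of the endoplasmic reticulum and of Dnajc25 in each library, from 0 on a linear axis, with replicate numbers beside the points and the mean ± SD (n = 4) in black. Hspa5, Hsp90b1 and Dnajc25 are lower in all 4 P635L Ctr libraries than in any WT Ctr library, while Dnajb11, Dnajc3 and Dnajc10 overlap.

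Outside the heat shock genes, other proteins of the endoplasmic reticulum moved in the same comparison. On a list of 21 genes of folding and stress in that compartment 7 fell, 2 rose and 12 did not pass the test, with a median log2 fold change of -0.18 beside -0.05 over all genes. Those that fell were Calr and Canx, the lectin chaperones (-0.70 and -0.48), Pdia6, a disulfide isomerase (-0.51), Hyou1, the compartment's Hsp110 (-0.60), Manf, a secreted protein of the stress response (-0.83), Sdf2l1 (-1.25) and Sel1l, of ER-associated degradation (-0.32). The 2 that rose were Atf4, the transcription factor of the integrated stress response (0.87 ± 0.14 (SE), adjusted p = 0.000309), and Trib3, one of its targets (0.65 ± 0.21 (SE), adjusted p = 0.0435). Atf4 had 58.2 to 81.3 CPM in WT Ctr and 113 to 150.0 in P635L Ctr, with no overlap. Trib3 had 5.12 to 7.45 CPM in WT Ctr and 6.01 to 12.8 in P635L Ctr, which overlap. The ER stress element stood in the windows of 5 of the 17 listed genes that have one (Calr, Canx, Creld2, Pdia6 and Syvn1). Of the 21 tested genes of any kind with the element 6 were called lower, namely Acacb, Calr, Canx, Hsp90b1, Hspa5 and Pdia6, and 1 higher, Tdrd9, where 7.14% of all tested genes were called lower. That count holds Hspa5 and Hsp90b1, whose fall prompted the search, so nothing is read from it. In P635L Tnpo3 against P635L Ctr 0 of these 21 genes were called, and in P635L Tnpo3 against WT Tnpo3 3 were lower (Canx, Hspa5 and Spats2l).

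In the cytosol Hspa1a and Hspa1l rose. Hspa1a (chr17:35188166-35191132) encodes the stress-inducible Hsp70 and Hspa1l (chr17:35191679-35198261) a close relative that is not heat-inducible. They lie head to head with start sites 547 bases apart. Hspa1a had 0.868, 1.94, 0.904 and 0.840 CPM in WT Ctr and 2.72, 4.00, 2.17 and 4.86 in P635L Ctr, from 24 to 47 and from 95 to 379 counts. Hspa1l had 2.86, 4.04, 2.41 and 2.64 CPM in WT Ctr and 6.91, 9.85, 6.66 and 7.72 in P635L Ctr. In both genes every P635L Ctr library exceeded every WT Ctr library. The log2 fold changes were 1.61 ± 0.35 (SE), adjusted p = 0.00444, and 1.39 ± 0.23 (SE), adjusted p = 0.000405, which are 3.05 and 2.62 times the WT Ctr level, and both calls held in all 17 alternative fits.

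Hspa1b, the near-identical copy of Hspa1a, did not pass the test. It had 1.56, 4.29, 1.1 and 0.695 CPM in WT Ctr and 1.77, 2.71, 1.76 and 3.41 in P635L Ctr (0.36 ± 0.43 (SE), adjusted p = 0.622). The groups overlapped through WT Ctr replicate 2, without which the log2 fold change was 1.15 (adjusted p = 0.0441). How reads that match both copies were counted is not given in the sources used here, so the split between Hspa1a and Hspa1b is uncertain. The copies are alike before the start site too. In the 130 bases shown, 129 are identical, and both hold a heat shock element of 2 units, GAANNTTC or TTCNNGAA on either strand, in capitals from 104 to 97 bases before the start (chr17:34972157-34972286, minus strand; chr17:34959239-34959368, minus strand; RefSeq, GRCm38.p6).
Hspa1a: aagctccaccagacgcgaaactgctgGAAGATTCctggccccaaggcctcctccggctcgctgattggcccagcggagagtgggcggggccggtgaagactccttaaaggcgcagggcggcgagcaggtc
Hspa1b: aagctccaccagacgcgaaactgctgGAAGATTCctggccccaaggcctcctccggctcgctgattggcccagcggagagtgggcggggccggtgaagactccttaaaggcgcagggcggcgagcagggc
This short form is common, in 15.1% of all windows and in those of 17 members. The longer form of 3 units, GAANNTTCNNGAA or TTCNNGAANNTTC, which always contains the short one, stood in 0.603% of all windows and in those of 4 members, Dnajb6, Hspd1, Hspe1 and Hsph1. None of these 4 was called in this comparison.

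Of the 3 tested heat shock factors 2 rose, and the principal one did not pass the test. Hsf4 (chr8:105996433-106002477), a factor best known from the lens, had 6.12, 6.02, 6.69 and 6.75 CPM in WT Ctr and 10.4, 11, 12.8 and 10.3 in P635L Ctr. Hsf2 (chr10:57362481-57389231), which acts in development and in complex with Hsf1, had 13.7, 12.8, 15.2 and 12.4 CPM in WT Ctr and 21.4, 21.6, 18.5 and 17.5 in P635L Ctr. In neither gene did the groups overlap. The log2 fold change was 0.80 ± 0.13 (SE), adjusted p = 0.000312 for Hsf4 and 0.55 ± 0.14 (SE), adjusted p = 0.0116 for Hsf2. Hsf1, the main factor of the heat shock response, had 39.3 to 46.5 CPM in WT Ctr and 38.7 to 46.3 in P635L Ctr (0.00 ± 0.12 (SE), adjusted p = 0.989).

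**Figure D3:**
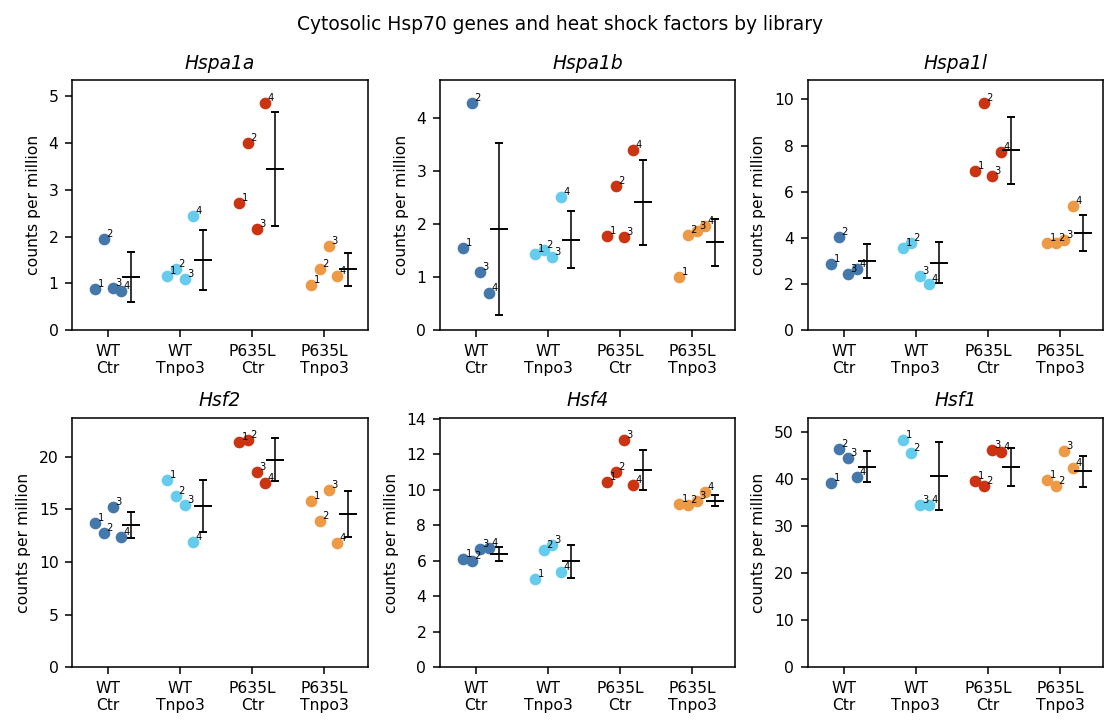
CPM of 3 cytosolic Hsp70 genes and 3 heat shock factors in each library, from 0 on a linear axis, with replicate numbers and the mean ± SD (n = 4) in black. Hspa1l is highest in the 4 P635L Ctr libraries, Hspa1a and Hsf2 are too except that 1 WT Tnpo3 library each reaches into their range, Hsf4 is high in both P635L groups, and Hsf1 lies between 34.5 and 48.3 in all libraries.

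The other members that fell were Dnajc25, Hspbp1 and Hspa12a. Dnajc25 (chr4:58995062-59025573), a membrane J-domain protein, had 23.0, 28.4, 22.5 and 19.0 CPM in WT Ctr and 12.6, 15.3, 15.8 and 17.5 in P635L Ctr, without overlap (-0.60 ± 0.12 (SE), adjusted p = 0.00297). Hspa12a, a distant relative of Hsp70, had 29.4 to 36.4 CPM in WT Ctr and 21.5 to 26.9 in P635L Ctr (-0.41 ± 0.10 (SE), adjusted p = 0.0102). That call was lost without P635L Ctr replicate 1 (log2 fold change -0.33, adjusted p = 0.0558) and without the filter on low counts (adjusted p = 0.0849). Hspbp1, an exchange factor of Hsp70, had 30.9 to 50.04 CPM in WT Ctr and 26.8 to 28.6 in P635L Ctr (-0.46 ± 0.15 (SE), adjusted p = 0.0456). Its call was lost in 9 of 17 alternatives. Leaving out WT Ctr replicate 2 gave -0.28 (adjusted p = 0.212), and leaving out WT Ctr replicate 1 or any single P635L Ctr library gave adjusted p from 0.077 to 0.109.

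The abundant cytosolic chaperones did not pass the test. Hspa8 had 1296 to 1875 CPM in WT Ctr and 1176 to 1341 in P635L Ctr (-0.22 ± 0.14 (SE), adjusted p = 0.314). Hsp90ab1 had -0.14 ± 0.13 (SE), adjusted p = 0.526, and its inducible sister Hsp90aa1 had -0.20 ± 0.23 (SE), adjusted p = 0.607. Hsph1, the Hsp110 that renews Hsp70, had 34.7, 83.7, 26.4 and 32.8 CPM in WT Ctr and 48.4, 40.8, 45.0 and 45.6 in P635L Ctr. Here 1 WT Ctr library stood above and 3 below all of P635L Ctr. Over all libraries its log2 fold change was 0.02 ± 0.31 (SE), adjusted p = 0.975, and without WT Ctr replicate 2 it was 0.55 (adjusted p = 0.117). The same omission turned Hsp90aa1 to 0.17 (adjusted p = 0.608) and gave -0.06 for Hspa8, 0.00 for Hsp90ab1, 0.06 for Dnajb1 and -0.10 for Dnaja1. Over all libraries Dnajb1, the main inducible J-domain partner of cytosolic Hsp70, had -0.09 ± 0.19 (SE), adjusted p = 0.808, and Dnaja1 had -0.28 ± 0.15 (SE), adjusted p = 0.233. None of the 4 Dnaja and 12 tested Dnajb genes was called at this threshold.

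In the mitochondrion the chaperonin subunits Hspd1 and Hspe1, whose genes share 1 promoter region with start sites 111 bases apart, had log2 fold changes of -0.39 ± 0.16 (SE), adjusted p = 0.123, and -0.45 ± 0.20 (SE), adjusted p = 0.149. Hspd1 had 245 to 366 CPM in WT Ctr and 199.6 to 231 in P635L Ctr, without overlap. Without WT Ctr replicate 2 the values were -0.22 for Hspd1 and -0.19 for Hspe1 (adjusted p = 0.428 and 0.546), and -0.09 for Hspa9. Over all libraries Hspa9 had -0.17 ± 0.15 (SE), adjusted p = 0.477. All 7 members placed in the mitochondrion by textbook knowledge had negative fold changes, from -0.45 to -0.17, and none was called. That grouping was made after the values were seen and may leave out other members of the mitochondrion. Dnajc30 (-0.11) and Dnajc4 (0.10) were not placed in it. Of all 77 tested members 46 had a negative fold change, so nothing is read from the shared sign. On a list of 12 other genes of mitochondrial folding and proteolysis Afg3l2, a membrane protease, fell (-0.44 ± 0.13 (SE), adjusted p = 0.0285) and the other 11 did not pass.

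P635L Tnpo3 against P635L Ctr compares the Tnpo3 vector with the control vector in mutant hearts. The vectors differ in iCre and eGFP as well as in Tnpo3, and these parts cannot be told apart. Effects named after Tnpo3 are therefore differences between whole vectors. Here 3 of 77 members fell and 0 rose, that is 3.9%, against 3.88% of all genes called and 2.25% called lower. The members' median log2 fold change was -0.14 beside 0.01 over all genes. Hspa1a and Hspa1l, the pair that was high in P635L Ctr, both fell, and so did the small heat shock protein Hspb3. This comparison and the first share the P635L Ctr libraries, so their spread moves the fold changes of any member in opposite directions. A fall here is thus not independent of a rise there.

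Hspa1a had 0.952, 1.30, 1.79 and 1.16 CPM in the 4 P635L Tnpo3 libraries, all below the lowest P635L Ctr value of 2.17 (-1.40 ± 0.34 (SE), adjusted p = 0.0276). Hspa1l had 3.78, 3.77, 3.89 and 5.39 CPM, again without overlap (-0.89 ± 0.22 (SE), adjusted p = 0.0307). Against WT Ctr the P635L Tnpo3 values of both genes did not pass the test, with log2 fold changes of 0.21 ± 0.35 (SE), adjusted p = 0.797, and 0.50 ± 0.23 (SE), adjusted p = 0.248. The fall of Hspa1a lost its call without P635L Ctr replicate 2 or 4 or P635L Tnpo3 replicate 1, 2 or 4 (adjusted p from 0.0688 to 0.116, log2 fold change from -1.39 to -1.19). The fall of Hspa1l lost its call without P635L Ctr replicate 1, 2 or 4 or P635L Tnpo3 replicate 1, 2 or 3 (adjusted p from 0.0553 to 0.127, log2 fold change from -0.92 to -0.74).

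Hspb3 (chr13:113799432-113800212), a muscle small heat shock protein that pairs with Hspb2, had 17.4, 16.5, 16.4 and 10.2 CPM in WT Ctr, 15.8, 14.5, 12.6 and 8.16 in WT Tnpo3, 18.5, 24.4, 20.6 and 19.1 in P635L Ctr and 12.1, 12.2, 13.0 and 14.0 in P635L Tnpo3. The P635L Ctr libraries lay above all others. Its fall with Tnpo3 was -0.69 ± 0.18 (SE), adjusted p = 0.041, and the difference of P635L Ctr over WT Ctr was 0.45 ± 0.18 (SE), adjusted p = 0.108. The call was lost on leaving out any 1 of the 8 P635L libraries, with adjusted p from 0.06 to 0.143 and log2 fold changes from -0.74 to -0.58.

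None of the other 6 tested members counted as small heat shock proteins passed in this comparison. Of these, 5 had a negative fold change. Hspb11, counted there by its symbol alone, had 0.15 ± 0.17 (SE), adjusted p = 0.712. Hspb7, the most abundant member, had 2916, 3081, 2917 and 3104 CPM in P635L Ctr and 2202, 1964, 2428 and 2379.5 in P635L Tnpo3 (-0.42 ± 0.17 (SE), adjusted p = 0.179). The groups did not overlap, while the WT Ctr libraries spread over both, from 2320.2 to 4276. Hspb1 had -0.36 ± 0.20 (SE), adjusted p = 0.364, Hspb6 had -0.26 ± 0.22 (SE), adjusted p = 0.576, Hspb8 had -0.09 ± 0.17 (SE), adjusted p = 0.844 and Hspb2 had -0.11 ± 0.14 (SE), adjusted p = 0.766. Hspb2 overlaps Cryab, a lens and heart crystallin, on the other strand, so reads of the pair may be mixed. Bag3, which links Hspb8 to Hsp70 for autophagy of damaged sarcomere proteins, had 240.1 to 279 CPM in P635L Ctr and 213 to 245 in P635L Tnpo3 (-0.19 ± 0.12 (SE), adjusted p = 0.422).

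**Figure D4:**
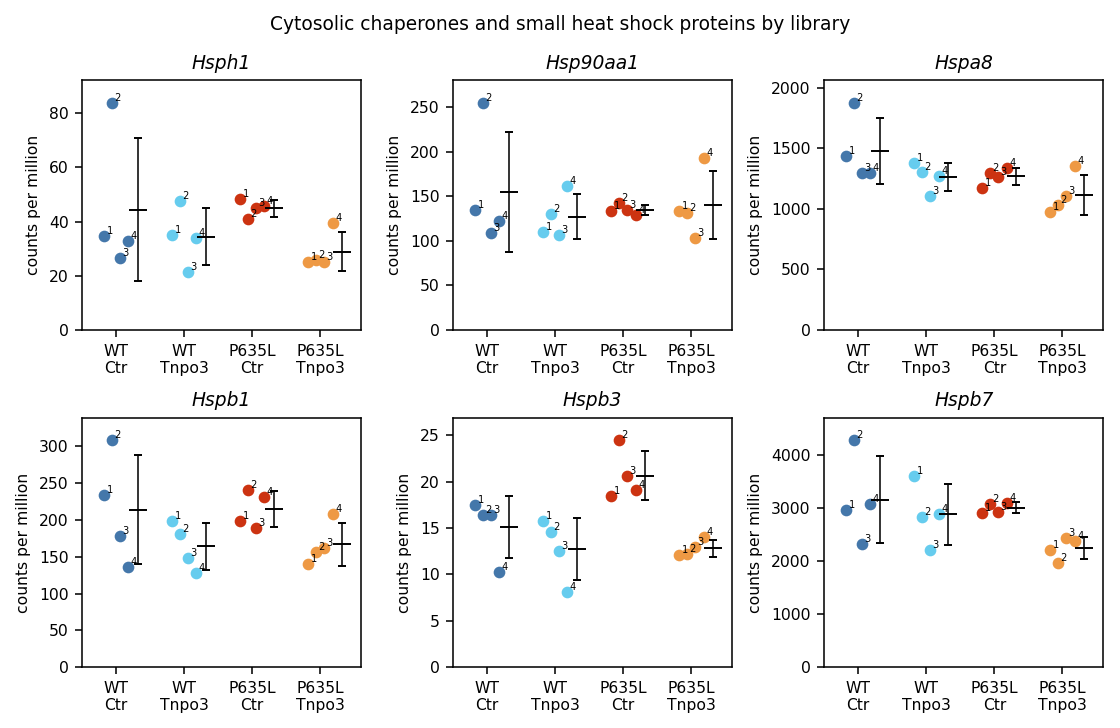
CPM of 3 cytosolic chaperones and 3 small heat shock proteins in each library, from 0 on a linear axis, with replicate numbers and the mean ± SD (n = 4) in black. WT Ctr replicate 2 is the highest point of the panel for Hsph1, Hsp90aa1, Hspa8, Hspb1 and Hspb7, and Hspb3 is highest in the 4 P635L Ctr libraries.

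The mean levels of Hspa5 and Hsp90b1 in P635L Tnpo3 lay between those of P635L Ctr and WT Ctr, and neither step passed the test. For Hspa5 the log2 fold change was 0.44 ± 0.13 (SE), adjusted p = 0.0716 against P635L Ctr and -0.38 ± 0.13 (SE), adjusted p = 0.137 against WT Ctr. For Hsp90b1, with 335, 276, 251 and 260.1 CPM in P635L Tnpo3, the values were 0.33 ± 0.11 (SE), adjusted p = 0.109, and -0.23 ± 0.11 (SE), adjusted p = 0.295. Every P635L Tnpo3 library was above every P635L Ctr library in both genes, and for Hspa5 3 of the 4 were below the lowest WT Ctr library. Of the 8 members placed in that compartment 5 had a negative fold change against P635L Ctr and none was called. Dnajc10 (-0.37 ± 0.11 (SE), adjusted p = 0.0663) and Hspa13 (-0.45 ± 0.14 (SE), adjusted p = 0.0874) had means below both P635L Ctr and WT Ctr. Dnajc25 had 0.29 ± 0.12 (SE), adjusted p = 0.222. Hsf2 had 15.8, 13.9, 16.8 and 11.8 CPM, all below P635L Ctr (-0.44 ± 0.14 (SE), adjusted p = 0.0827), and Hsf4 had -0.24 ± 0.12 (SE), adjusted p = 0.312. On the list of the endoplasmic reticulum Atf6, a sensor of the unfolded protein response, and Atf4 fell (-0.72 and -0.52) and 0 of 21 rose.

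The number of calls in this comparison changed with the libraries fitted. Fitted on the 8 P635L libraries alone, 20 of 77 members were called, 17 lower and 3 higher, where 15.9% of all genes were called. The 3 that were higher were Hspa5 (adjusted p = 0.0213), Hsp90b1 (adjusted p = 0.026) and Dnajc15, a J-domain protein of the inner mitochondrial membrane (adjusted p = 0.0359). The lower ones included Hspb7 (-0.42, adjusted p = 0.00486), Hsph1 (-0.64, adjusted p = 0.0124), Hspa4 (-0.40, adjusted p = 0.00558), Dnajb4 (-0.54, adjusted p = 0.00159) and Hsf2 (-0.44, adjusted p = 0.0251). DESeq2 on all 16 libraries called 10 of 77 members with an adjusted p, 8 lower and 2 higher, against 7.76% of all genes. The median SD of the members' CPM, as a share of the mean, was 8.97% in P635L Ctr and 9.37% in P635L Tnpo3, against 16.1% in WT Ctr and 18.5% in WT Tnpo3. Over all genes these shares were 13.6 and 13.3%, against 21.9 and 22.6%, so the difference was not particular to the members.

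In wild type hearts the Tnpo3 vector, set against the control vector, changed 0 members at the threshold. 1 of 77 had an unadjusted p under 0.05, against 3.2% of all genes. DESeq2 called 0, against 0.00813% of all genes, and by edgeR 0.00536% of all genes, which is Tnpo3 itself, were called. The median log2 fold change of the members was -0.04. Hspa5 had a log2 fold change of 0.24 ± 0.13 (SE), adjusted p = 1, Hspa1a of 0.41 ± 0.36 (SE), adjusted p = 1, Hspa1l of -0.02 ± 0.23 (SE), adjusted p = 1 and Hspb3 of -0.24 ± 0.18 (SE), adjusted p = 1.

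The difference between the effect of Tnpo3 in mutant and in wild type hearts was tested as an interaction, and 0 of 77 members passed, where 0.504% of all genes did. At an unadjusted p under 0.05 there were 8 of 77, against 12.4% of all genes. DESeq2 called 1 of 75 members with an adjusted p, Hspa1a, against 2.45% of all genes. For Hspa1a the interaction was -1.81 ± 0.49 (SE), adjusted p = 0.122 with edgeR on all libraries, and -2.21 (adjusted p = 0.0391) without WT Ctr replicate 2. Hspa1l had -0.86 ± 0.32 (SE), adjusted p = 0.272, Hsf2 had -0.62 ± 0.19 (SE), adjusted p = 0.195 and Hspa5 had 0.21 ± 0.19 (SE), adjusted p = 0.682.

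P635L Tnpo3 against WT Tnpo3 gives the genotype difference in mice that shared no library with the first comparison. It called 4 of 77 members (5.19%, against 3.72% of all genes), 1 higher and 3 lower. Hsf4 was again higher (0.65 ± 0.13 (SE), adjusted p = 0.00704), with 5.01, 6.63, 6.90 and 5.38 CPM in WT Tnpo3 and 9.23, 9.14, 9.36 and 9.88 in P635L Tnpo3, and this call held in all 17 alternatives. Hspa5 was again lower (-0.61 ± 0.13 (SE), adjusted p = 0.0157), with no overlap of the groups. Its call was lost without WT Tnpo3 replicate 1 or 2 or P635L Tnpo3 replicate 3 or 4, where adjusted p ran from 0.05 to 0.071 and the log2 fold change from -0.59 to -0.53. Without the 3 libraries with high Xist it was also lost (-0.54, adjusted p = 0.0677). Dnajc10 (-0.40 ± 0.11 (SE), adjusted p = 0.0491) and Dnajc5, the cysteine string protein of secretory vesicles (-0.35 ± 0.09 (SE), adjusted p = 0.0437), passed narrowly and lost their calls in 12 and 13 of the 17 alternatives. Dnajc10 lost its call without WT Tnpo3 replicate 1 or 2 or any single P635L Tnpo3 library (adjusted p from 0.0603 to 0.163). Dnajc5 lost its call without WT Tnpo3 replicate 1, 2 or 4 or any single P635L Tnpo3 library (adjusted p from 0.0542 to 0.149).

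Of the 9 members called in the first comparison 7 had the same sign here. The 2 others were Hspa1a (-0.20) and Hsf2 (-0.07). Hsp90b1 had -0.37 ± 0.11 (SE), adjusted p = 0.076, Dnajc25 -0.29 ± 0.12 (SE), adjusted p = 0.2, Hspa12a -0.33 ± 0.10 (SE), adjusted p = 0.0717 and Hspa1l 0.53 ± 0.23 (SE), adjusted p = 0.196. Across the 77 members the fold changes of these comparisons had a Pearson r of 0.31 and a Spearman rho of 0.45, given as a description across genes that share libraries within each comparison. Over all tested genes the values were 0.60 and 0.43. On the list of the endoplasmic reticulum Hyou1 (-0.58), Canx (-0.49) and Pdia4, a disulfide isomerase (-0.47), fell and 0 of 21 rose. A negative fold change was found in 18 of 21, as in 59 of the 77 tested members, so nothing is read from the sign. The median was -0.27 on the list and -0.02 over all genes.

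**Figure D5:**
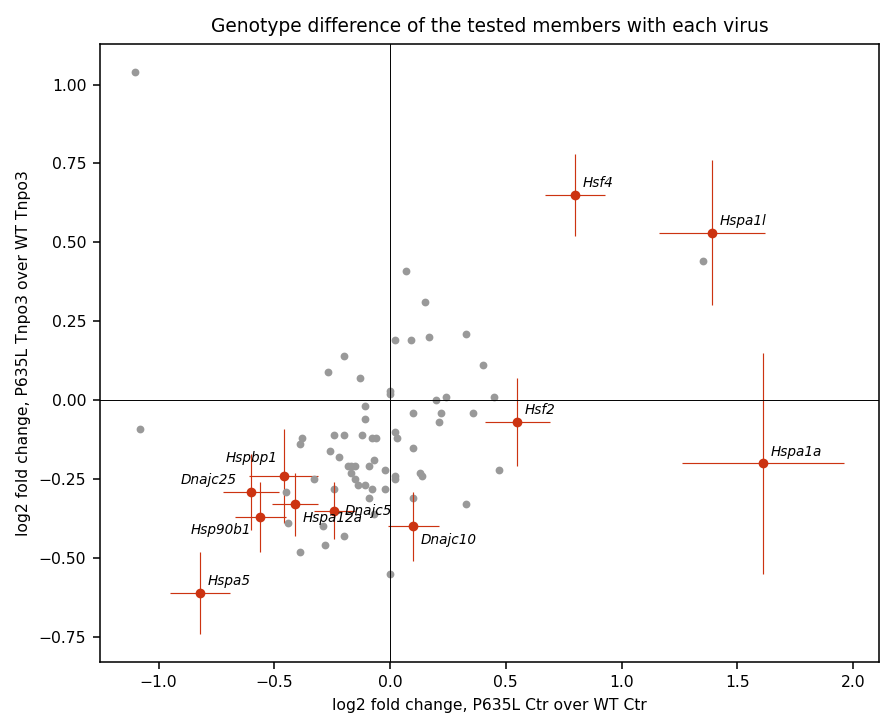
Log2 fold change of the 77 tested members in P635L Ctr over WT Ctr (horizontal) and in P635L Tnpo3 over WT Tnpo3 (vertical), which share no library. Red points with ± SE bars were called in at least 1 comparison: Hspa5 is lower and Hsf4 higher with either virus, while Hspa1a (1.61 and -0.20) and Hsf2 (0.55 and -0.07) lie far to the right and near the horizontal zero line. The 3 grey points far from the centre, Dnajb13, Dnajb3 and Dnajb7, had between 1 and 47 counts per library and were not called.

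Measured against WT Ctr, the treated mutant hearts had 1 called member of 77 (1.3%, against 3.07% of all genes), Hsf4 (0.55 ± 0.13 (SE), adjusted p = 0.0211). All 4 P635L Tnpo3 libraries were above all 4 WT Ctr libraries, and the call was lost without P635L Tnpo3 replicate 4 (0.53, adjusted p = 0.0748) and without the 3 libraries rich in ENSMUSG00000119584 (0.59, adjusted p = 0.0731). The members' median was -0.22 beside -0.05 over all genes, and 62 of 77 had a negative fold change. Dnajc5 (-0.34 ± 0.09 (SE), adjusted p = 0.0535), Hspa12a (-0.36 ± 0.10 (SE), adjusted p = 0.0612) and Dnaja1 (-0.50 ± 0.15 (SE), adjusted p = 0.0781) came nearest to the threshold among the named members.

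Of 18 Hsp90 cochaperones and myosin folding factors Fkbp4, an immunophilin, fell in P635L Ctr against WT Ctr (-0.79 ± 0.15 (SE), adjusted p = 0.00115), with 518 to 762 CPM in WT Ctr and 303 to 396 in P635L Ctr. Smyd1, a muscle methyltransferase that acts with Hsp90 on myosin, was lower in P635L Tnpo3 against WT Tnpo3 (-0.78 ± 0.17 (SE), adjusted p = 0.0183) and against WT Ctr (-0.75 ± 0.17 (SE), adjusted p = 0.0225). It was not called in P635L Ctr against WT Ctr, yet there too the mutant libraries lay lower, at 239 to 282 CPM against 299.7 to 467. Of 14 subunits of the TRiC chaperonin and prefoldin 0 were called in any of the 6 comparisons, and 12 of 14 had a negative fold change in P635L Ctr against WT Ctr (median -0.13, beside -0.05 over all genes). Of 11 tested genes of chaperone-assisted autophagy and crystallins Sqstm1, the autophagy receptor p62, rose in P635L Ctr (0.59 ± 0.13 (SE), adjusted p = 0.00387), and Flnc, a sarcomere client of Bag3, fell with Tnpo3 in mutant hearts (-0.57 ± 0.16 (SE), adjusted p = 0.0497). Lonp1, a protease of the mitochondrial matrix, also fell with Tnpo3 in mutant hearts (-0.49 ± 0.13 (SE), adjusted p = 0.0368). In P635L Tnpo3 against P635L Ctr the median log2 fold change was -0.25 for the genes of autophagy and crystallins, with 9 of 11 negative, and -0.18 for the Hsp90 cochaperones, with 14 of 18 negative, beside 0.01 over all genes.

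Markers of some cell types moved with these comparisons. In P635L Ctr against WT Ctr 0 of 5 endothelial, 4 smooth muscle and pericyte, 6 lymphocyte and 5 erythroid markers were called. The same held in P635L Tnpo3 against P635L Ctr. All 5 fibroblast markers rose in P635L Ctr against WT Ctr (median log2 fold change 0.98) and all 5 fell in P635L Tnpo3 against P635L Ctr (median -0.87). Their summed level was 743 to 1116 CPM in WT Ctr, 1258 to 1885 in P635L Ctr and 837 to 1165 in P635L Tnpo3. The 3 atrial markers summed to between 2.41 and 10.1 CPM over all libraries of this ventricular tissue. The 7 cardiomyocyte markers summed to between 69535 and 82809 CPM in WT Ctr and between 50537 and 54634 in P635L Ctr, with 3 of 7 called lower and all 7 negative. Of 5 macrophage markers 1 was lower in P635L Ctr, with a sum of 151 to 211 CPM there and 183 to 593 in WT Ctr. Adipoq and Plin1, of fat cells, and Ms4a1, of B cells, were under 1 CPM in every library. The part of these cells in the changes of Hspa1a, Hspa1l, Hsf2, Hspb3 and the endoplasmic reticulum chaperones was not tested, and in bulk tissue fewer cells of a type and less RNA per cell cannot be told apart.

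RBM20 is a splicing factor, and the deposited splicing tables were searched for events of the members. In P635L Ctr against WT Ctr 171 events of 46 members had a mean of 10 or more junction reads per library in each group, and 4 events in 3 genes were called at the authors' FDR under 0.05 with a change in inclusion of at least 0.1. Over all genes 2.52% of such events were called. The tables give 4 libraries per group without saying which is which. All 4 were skipped exons.

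In Bag6, a chaperone of membrane proteins bound for insertion or degradation, an exon of 54 bases at chr17:35357999-35358052 (GRCm39) was included at 70.7, 71.4, 80.1 and 73.2% in WT Ctr and at 94.4, 81.5, 91.2 and 93.1% in P635L Ctr. The groups did not overlap, and the difference was 16.2 points (rMATS FDR = 0.000246, in the authors' deposited table). In Dnajc24, a J-domain protein needed for diphthamide synthesis, an exon of 69 bases at chr2:105800793-105800861 was included at 68.7, 65.5, 82.8 and 83.2% in WT Ctr and at 88.4, 92, 79.6 and 81.1% in P635L Ctr, which overlap (10.2 points, FDR = 0.0322, in the authors' deposited table). Both lengths are multiples of 3. Dnajc24 overlaps Dcdc5 on the other strand.

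Dnajc18, a membrane J-domain protein, had 2 overlapping forms of 1 exon, of 94 and 184 bases from chr18:35835465, with a mean of 16.5 to 25.5 junction reads per library in WT Ctr and P635L Ctr and of 11.8 in P635L Tnpo3. The shorter form was included at 26.4, 18.8, 35 and 14.7% in WT Ctr and at 5.7, 1.2, 3.5 and 3.7% in P635L Ctr (-20.2 points, FDR = 3.3e-05, in the authors' deposited table). In WT Tnpo3 the same form read 2.3, 66.4, 3.4 and 8.2%, so the spread within that WT group was as wide as the genotype difference.

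In P635L Tnpo3 against WT Ctr 201 events of 48 members had the depth and 3 were called, the exons of Dnajc18 and Dnajc24, where 2.12% of all events were. The Dnajc24 exon was included at 85, 91.4, 91.6 and 83.8%, above every WT Ctr library (12.9 points, FDR = 0.00422, in the authors' deposited table). The Bag6 exon was at 80.1, 87.6, 70.8 and 97.8%, and its difference of 10.2 points was not called (FDR = 0.334). In WT Tnpo3 against WT Ctr 0 of 176 events were called, where 0.941% of all events were, and 16 had an unadjusted rMATS p under 0.05. Between P635L Tnpo3 and P635L Ctr inclusion differed by -5.98 points for Bag6 and 2.67 for Dnajc24, with exact two-sided permutation p = 0.371 and 0.486 (adjusted over 4 events 0.971 for both; n = 4 against 4, where the smallest p is 0.0286). For the Dnajc18 forms p was 0.914 and 1 in the same exact test. Leaving out 1 library moved the Bag6 difference between -10.6 and -1.55 points and that of Dnajc24 between 0.783 and 4.92, and turned the sign of both Dnajc18 forms (from -2.09 to 3.38 and from -4.45 to 1.73 points).

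The authors' deposited table of DESeq2 results lists 81 of the 82 members for P635L Ctr against WT Ctr and has 13 with an adjusted p under 0.05, 6 higher and 7 lower in P635L Ctr, where 15.6% of all genes with an adjusted p in the authors' deposited table were. They are the 9 members called above and Dnajb4, Dnajc24, Bag6 and Dnajc11, which in the authors' deposited table had log2 fold changes of 0.48, 0.42, -0.24 and -0.37 with the sign turned to P635L Ctr over WT Ctr. For P635L Tnpo3 against WT Ctr the authors' deposited table has 7, namely Hsf4 higher and Bag2, Dnaja4, Dnajc5, Hspa12a, Hsp90ab1 and Hspd1 lower, against 6.25% of all its genes. For WT Tnpo3 against WT Ctr the authors' deposited table has 0 members, against 0.0123% of all its genes.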

How the data were processed

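Left ventricular RNA was selected for polyadenylated RNA and made into directional libraries, per the labels' protocols. STAR 2.7.9a, featureCounts 2.0.6 and the build GRCm39 are named, per the submitters' processing notes, and the authors deposited whole-number counts per gene. The deposited DESeq2 tables hold log2 fold changes (WT Ctr over the other group) and p-values, and the deposited rMATS tables hold inclusion fractions, junction read counts and FDR per event, per the file headers; other columns are gene or event descriptions, per the file headers. The strand setting of the counting is not given in the sources used here, and 27 members overlap exons of a gene on the other strand.

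Symbols came from the splicing tables or a gene name table. Counts of all 16 libraries were fitted with edgeR 4.0.16 (R 4.3.3, TMM scaling, filterByExpr, robust quasi-likelihood F test, 1 mean per group, 12 residual degrees of freedom). P-values were adjusted by Benjamini-Hochberg over 18662 genes, and a gene was called at 0.05. The SE is the log2 fold change divided by the square root of F. The fit was also run on simulated counts that had the same dispersion in every gene and library. That run does not bear on the unequal spread of the real groups. TPM used the deposited exonic lengths and left out ENSMUSG00000119584. Splicing tables held 1 to 4 exact repeats each, which were removed, and exon starts were made 1-based. Figures and tables were made with Python 3.11.15. Alternatives were other scalings, no filter, DESeq2 1.42.0, a replicate block, Xist as covariate, and left-out libraries. Named genes were the members called in any comparison, the 10 of highest TPM in WT Ctr and a list of main chaperones; other members are named where a small group or setting singles them out, after their values were seen. The members and lists were chosen with earlier results of these data known. Each library is 1 mouse, and p-values measure the spread between mice.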

Additional observations from a re-analysis of the deposited data

Results flagged for a closer look

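In 9 of 124 groups of 4 libraries, tested for the 31 named members, 1 library stood apart by Dixon's criterion at the 95% level, which chance alone meets in about 1 in 20 groups. Hsph1 stood at 83.7 CPM in WT Ctr replicate 2 and at 39.6 CPM in P635L Tnpo3 replicate 4. Hspa1a stood at 1.94 CPM in WT Ctr replicate 2 and at 2.44 CPM in WT Tnpo3 replicate 4, and Hspa1b at 2.51 CPM in WT Tnpo3 replicate 4. Hspa1l stood at 5.39 CPM in P635L Tnpo3 replicate 4. Dnajc5 stood high at 62.5 CPM in P635L Ctr replicate 4. Low values were Dnaja1 at 45.9 CPM in P635L Ctr replicate 3 and Hspb3 at 10.2 CPM in WT Ctr replicate 4. WT Ctr replicate 2 and WT Tnpo3 replicate 4 are among the libraries rich in ENSMUSG00000119584.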

How the results depend on the processing

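In P635L Ctr against WT Ctr between 7 and 13 members were called under the 17 alternatives, beside 9. In WT Tnpo3 against WT Ctr the count was 0 under all 17. For P635L Tnpo3 against P635L Ctr (3 members) the count was 10 with DESeq2, without the 3 libraries rich in ENSMUSG00000119584 and without the 3 with high Xist, 20 on the P635L libraries alone, and 0 to 2 with 1 library left out. For P635L Tnpo3 against WT Tnpo3 (4 members) it was 8 with DESeq2, 11 without the libraries rich in ENSMUSG00000119584, 1 without those with high Xist, 2 with high Xist as a covariate, with upper-quartile scaling, without the filter and on the compared libraries alone, and 1 to 6 with 1 library left out. For P635L Tnpo3 against WT Ctr (1 member) it was 6 with DESeq2, 0 without the libraries rich in ENSMUSG00000119584, 4 without those with high Xist, and 0 to 3 with 1 library left out. For the interaction (0 members) it was 1 with DESeq2, 1 without the libraries rich in ENSMUSG00000119584, and 0 to 1 with 1 library left out. Calls over all genes moved as well. For P635L Tnpo3 against P635L Ctr they were 724 in the main fit and 1363 with DESeq2. They were 1482 without the rich libraries, 1282 without those with high Xist and 2846 on the P635L libraries alone. In the order of the first 4, P635L Tnpo3 gave 694, 1439, 1887 and 386 against WT Tnpo3, and 573, 1113, 319 and 550 against WT Ctr. The interaction gave 94, 412 and 322 in the first 3. The cause was not tested. No called member changed sign under any alternative run.

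Same-numbered libraries of WT Ctr and WT Tnpo3 had positive correlations of their deviations, from 0.096 to 0.552 over 4 pairs. Over all 24 same-numbered pairs r ran from -0.257 to 0.552, and over 72 differently numbered pairs from -0.326 to 0.251. These values do not settle whether the numbers mark pairs. The highest r was between WT Ctr 4 and WT Tnpo3 4, which are both rich in ENSMUSG00000119584 and high in Xist. The labels do not state that a shared number marks a litter or day, so the numbers were not taken as pairs. With a replicate block the counts of called members were 9 in P635L Ctr against WT Ctr, 4 in P635L Tnpo3 against P635L Ctr, 2 in P635L Tnpo3 against WT Tnpo3 and 2 in P635L Tnpo3 against WT Ctr, and 0 in the other 2 tests. Over all genes the block gave 2487, 677, 547 and 490 calls in the 4 comparisons named, against 2653, 724, 694 and 573 without it.

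For splicing, an inclusion change of at least 0.2 left 1 event in P635L Ctr and 0 in P635L Tnpo3 against WT Ctr. At least 20 junction reads left 2 and 1, and an FDR under 0.01 left 3 and 1. Hspa1a, Hspa1b and Hspa1l rest on low counts, which limits their precision.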
